A study of Mus musculus with 12 samples.

Results

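Zinc was withdrawn from maturing mouse red cell precursors with the chelator DTPA, or the zinc enzyme ALAD was inhibited in them with SA, and the 3 DTPA libraries are set here directly against the 3 SA libraries. The features compared are the 11920 genes, out of 55487 deposited rows, that reached 1 TPM in at least 3 of the study's 12 libraries. TPM is a read count divided by exon length and scaled to the same total in every library, so levels can be compared between genes as well as between libraries. All cells were G1E-ER4, a mouse erythroid progenitor line without a working Gata1 gene, in which a GATA1 protein joined to the estrogen receptor's hormone-binding domain starts maturation once estradiol is given. Every culture, the controls included, received 100 nM β-estradiol and was harvested after 24 h. Control cells had no further agent, the DTPA cells had 50 µM DTPA and carry the label low zinc, and the SA cells had 0.2 mM SA and carry the label low protoporphyrin IX. A further group, with 50 µM of the iron chelator DFO, entered the same fit. The written treatment protocol names DFO for the ALAD-inhibited cells, while the titles and treatment tags name SA, and the latter were followed. The labels call the 3 libraries of a group biological replicates of this 1 line, and p-values measure only the spread between them.

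Heme is built in a chain of enzymes that begins and ends in the mitochondrion, and ALAD, the second of them, holds zinc in its active centre and joins aminolevulinate molecules into porphobilinogen. Red cell precursors run this chain at a high rate, because each globin chain must be matched by a heme. When heme is short the kinase HRI (Eif2ak1) phosphorylates eIF2, bulk translation slows, and the transcription factor ATF4 raises genes of amino acid supply. Zinc has its own circuit: the factor MTF1 binds free zinc and drives the metallothioneins, while importers of the ZIP family bring zinc into the cytosol and exporters of the ZnT family carry it out. Zinc also sits in many other enzymes and in the fingers of the GATA and KLF factors.

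Depth was alike in the groups, with between 21079380 and 24339697 reads on genes in the DTPA libraries and between 20935102 and 22669418 in the SA libraries, recovered from the spacing of the TPM values. All 12 defining erythroid markers were measured in every group. Their summed level was between 42855 and 44563 TPM with DTPA and between 23650 and 24234 TPM with SA, and most of it came from Hbb-bs and Hba-a1. On the first principal component, which held 61.4% of the variance, the DTPA libraries stood apart from the other 9. The bulk of each culture is measured, so fewer cells of a kind and less transcript per cell cannot be told apart.

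By limma on log2(TPM + 1), 7994 of the 11920 genes (67.1%) differed between DTPA and SA at an adjusted p under 0.05, 2395 of them higher with DTPA (20.1%) and 5599 lower (47%). Most differences were small: the median absolute log2 fold change of the called genes was 0.45, 1175 genes (9.86%) were at least 2-fold apart, of which 379 (3.18%) were higher with DTPA and 796 (6.68%) lower. In 8396 genes (70.4%) the DTPA and SA libraries did not overlap. Counts within a gene group are to be read against these shares. Some genes reached 1 TPM only with DTPA, among them Bok, Myb and the marker genes Hdc and Cd79a. They entered the comparison by being high there, so their direction carries no weight. Log2 fold changes are always DTPA minus SA unless control is named. The median over all genes was -0.17, and median-of-ratios scaling, which assumes that most genes do not differ, moved it by 0.18 and gave 3794 higher and 3884 lower calls. A log2 difference smaller than that shift has a direction only relative to the scaling.

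For orientation, 7811 genes (65.5%) differed between DTPA and control, with 2796 (23.5%) higher and 5015 (42.1%) lower. Between SA and control 2643 genes (22.2%) differed, 1839 (15.4%) higher and 804 (6.74%) lower. Both sets use the same 3 control libraries, so control levels are given only to place the values of the treated cells.

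**Figure D1:**
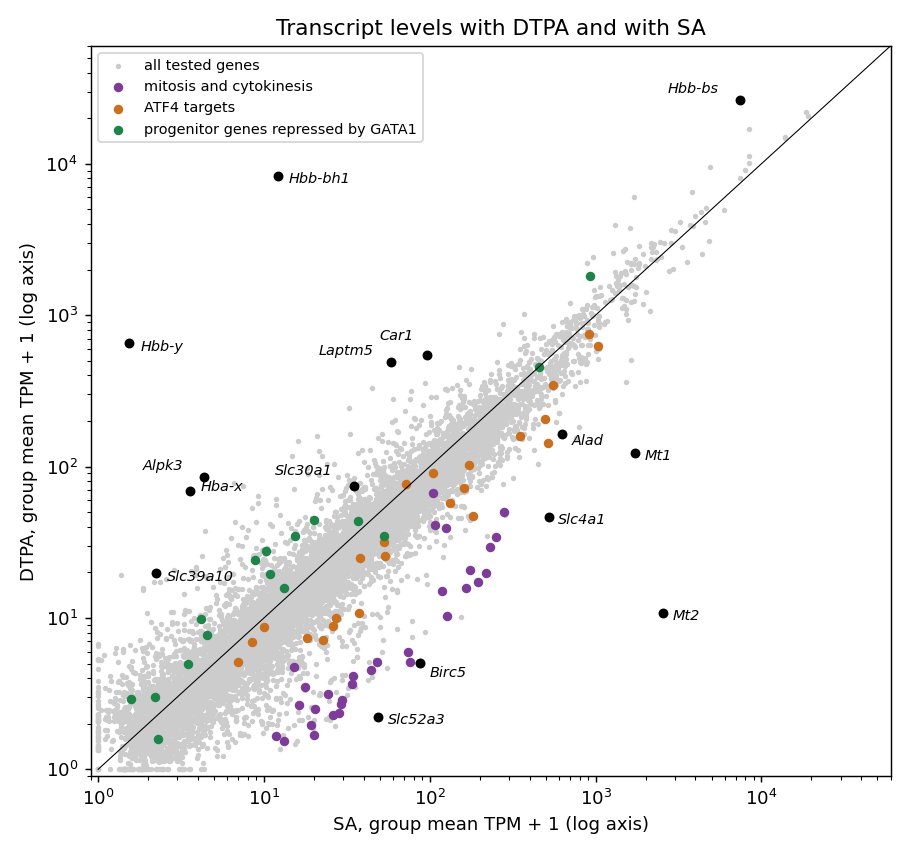
Group mean level with SA (x axis) against group mean level with DTPA (y axis), both as TPM + 1 on log axes, for the 11920 tested genes, with the diagonal marking equal levels. Mitosis genes in purple and ATF4 targets in orange lie mostly below the diagonal and progenitor genes in green mostly above it, while the metallothionein Mt2 and the embryonic globins Hbb-bh1 and Hbb-y lie farthest from it.

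Zinc handling separated the treatments clearly at the metallothioneins. Metallothioneins are small cysteine-rich proteins that buffer zinc, and their transcripts are a standard readout of free zinc through MTF1. Mt2 stood at 8.36, 10.5 and 10.6 TPM in the DTPA libraries and at 2477, 2588 and 2601 TPM in the SA libraries. The SA libraries lay at the level of the controls (2429 to 2594 TPM), and every DTPA library lay far below both. Mean Mt2 was 260-fold higher with SA; on the log2 scale DTPA minus SA came to -7.89 with a standard error of 0.080, and limma gave an adjusted p of 1.9e-14. Mt1 stood at 126, 122 and 119 TPM with DTPA and at 1737, 1751 and 1699 TPM with SA, 14.2-fold higher with SA (log2 fold change -3.81). Mtf1, the zinc sensor itself, was lower with DTPA by a far smaller step, at 15.8, 16.9 and 16.1 TPM against 23.4, 23.1 and 24.4 TPM (log2 fold change -0.51). Thus all 3 measured members of the 5 listed were lower with DTPA. Against control, Mt2 with SA differed by 0.02 in log2 and Mt1 by -0.11.

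The 2 metallothionein genes lie side by side on chromosome 8 (Mt2 at chr8:94172664-94173568 and Mt1 at chr8:94179082-94180327, both on the plus strand of mm10). Their promoters are shown because MTF1 is known to act through short metal response elements, here searched as the core TGCACNC or TGCGCNC on both strands and set in capitals. Each stretch runs from 250 bases before to 50 bases after the RefSeq start on GRCm38.p6, on the plus strand, at chr8:94172368-94172667, chr8:94178839-94179138 and chr1:191906531-191906830.
Mt2: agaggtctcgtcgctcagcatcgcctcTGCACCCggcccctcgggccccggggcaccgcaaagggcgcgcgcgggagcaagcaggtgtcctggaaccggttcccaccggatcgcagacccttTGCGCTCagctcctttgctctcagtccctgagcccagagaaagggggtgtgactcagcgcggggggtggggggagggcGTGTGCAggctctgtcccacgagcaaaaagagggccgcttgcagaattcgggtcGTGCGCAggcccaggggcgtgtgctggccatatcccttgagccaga
Mt1: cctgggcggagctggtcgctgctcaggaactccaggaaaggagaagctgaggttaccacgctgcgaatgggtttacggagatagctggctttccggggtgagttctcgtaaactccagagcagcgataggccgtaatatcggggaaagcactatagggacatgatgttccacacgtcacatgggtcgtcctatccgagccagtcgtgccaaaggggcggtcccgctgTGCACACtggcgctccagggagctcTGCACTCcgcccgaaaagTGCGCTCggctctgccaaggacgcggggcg
Slc30a1: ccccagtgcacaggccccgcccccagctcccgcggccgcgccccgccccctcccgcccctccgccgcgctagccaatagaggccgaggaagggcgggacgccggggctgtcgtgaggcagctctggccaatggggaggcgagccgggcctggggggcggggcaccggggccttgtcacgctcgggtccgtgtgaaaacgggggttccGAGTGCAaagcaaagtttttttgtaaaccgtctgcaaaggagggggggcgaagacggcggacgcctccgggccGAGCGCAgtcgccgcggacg
The core occurred 4 times in the Mt2 window, 3 times in that of Mt1 and 2 times in that of the exporter gene Slc30a1. Of the 7841 tested genes with such a window, 40.7% held at least 1 core, 13.5% at least 2 and 3.75% at least 3. Both windows of the importer gene Slc39a10 held none. A match is a run of letters, not a measured binding site.

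Zinc transporters differed as single genes. Slc39a10 (chr1:46807544-46892852, minus strand) encodes ZIP10, a plasma membrane importer. It stood at 18.9, 17.9 and 19.2 TPM with DTPA and at 1.17, 0.965 and 1.61 TPM with SA. The SA libraries overlapped the controls (1.49, 1.62 and 1.64 TPM), and the DTPA libraries lay 15.0-fold above those of SA (log2 fold change 3.14, SE 0.110, adjusted p = 2.8e-10). Among the 9 measured ZIP genes, 2 were higher with DTPA, 3 were lower and 4 were not called, with a median of 0.12, and rescaling by the median of ratios changed the calls to 4 higher and 2 lower. The second importer called higher was Slc39a1, at 43.1, 45.3 and 42.1 TPM against 34.8, 32.7 and 32.0 TPM. Slc39a8, which carries zinc and manganese and was the most abundant ZIP transcript with SA, was lower with DTPA at 236, 242 and 239 TPM against 313, 307 and 319 TPM.

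Slc30a1 encodes ZnT1, the exporter of the plasma membrane and a textbook MTF1 target. Although the metallothioneins were lower with DTPA, Slc30a1 was higher, at 74.7, 76.5 and 69.8 TPM against 32.9, 33.6 and 35.1 TPM with SA (log2 fold change 1.10, adjusted p = 8.5e-09). The SA libraries lay below all 3 controls, which spanned 37.1 to 41.5 TPM. Of the 6 measured ZnT genes 2 were higher, 3 lower and 1 was not called, and after rescaling by the median of ratios 3 were higher and 2 lower. The lower ones were Slc30a9 (log2 fold change -0.61) and the secretory pathway exporters Slc30a5 (-0.44) and Slc30a6 (-0.30), the last not called under either rescaling.

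Other zinc enzymes split both ways: of 18 measured, 7 were higher with DTPA, 8 lower and 3 not called, or 10 and 8 under median-of-ratios scaling. With a filter of 5 TPM, 15 were measured, 4 of them higher and 8 lower, and the median moved from 0.04 to -0.32. Carbonic anhydrases differed within their family. Car1 stood at 534, 544 and 562 TPM with DTPA and at 94.6, 94.7 and 94.2 TPM with SA, 5.78-fold higher with DTPA. Car13 went the other way, with 7.03, 9.30 and 8.39 TPM against 26.5, 25.3 and 25.3 TPM. The protease gene Ece1 was 5.81-fold higher with DTPA, from an SA mean of 0.870 TPM.

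**Figure D2:**
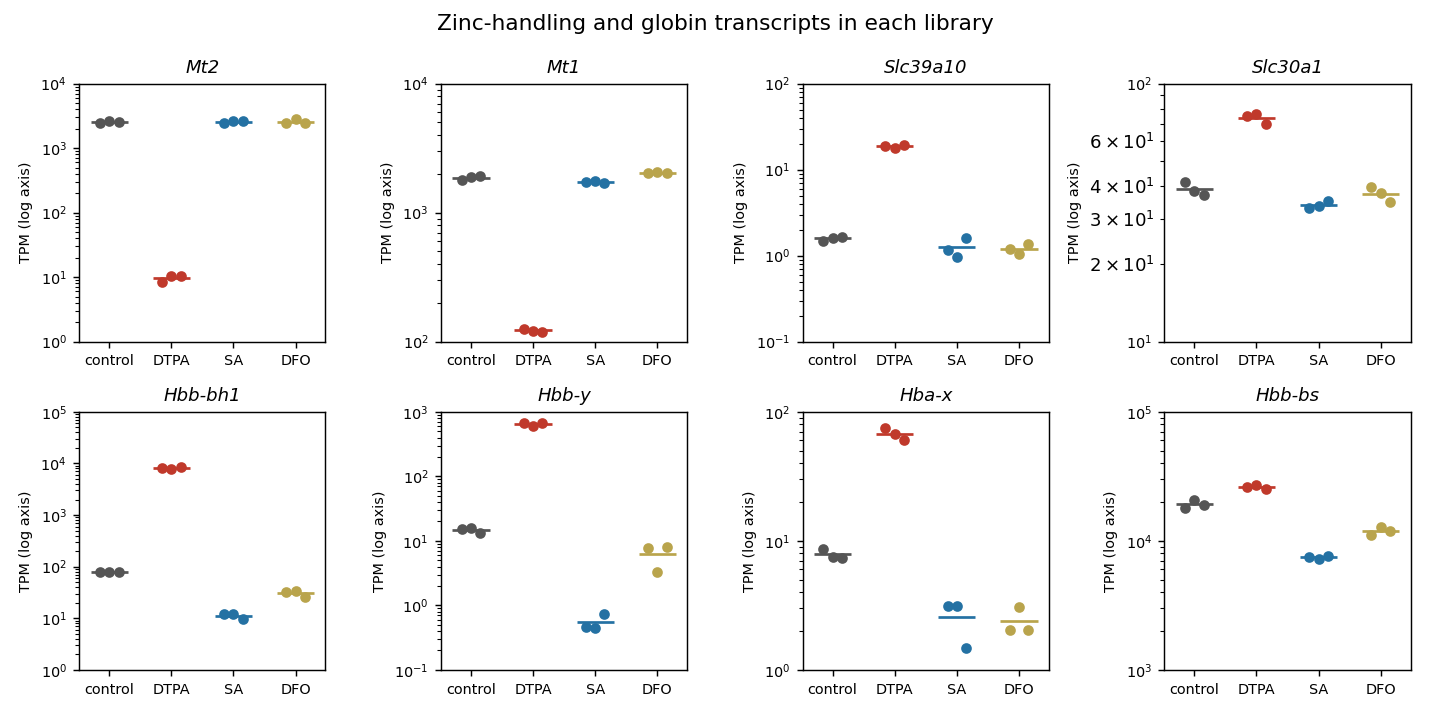
TPM of 4 zinc-handling genes (upper row) and 4 globin genes (lower row) in each library on log axes, with points for libraries and bars for group means. Control, SA and DFO libraries sit near each other for Mt2, Mt1 and Slc39a10, while for Hbb-bh1 and Hbb-y the DTPA libraries lie above control and the SA libraries below it.

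Heme synthesis is the pathway of the enzyme that SA was used to inhibit. Alad (chr4:62509169-62519918, minus strand) stood at 168, 161 and 159 TPM with DTPA and at 623, 631 and 636 TPM with SA, with the controls between 653 and 682 TPM. The enzyme that SA inhibits was thus near its control transcript level with SA, and 3.88-fold lower with DTPA (log2 fold change -1.95, SE 0.026, adjusted p = 1.4e-13). Alas2, the erythroid enzyme of the entry step (chrX:150547375-150570638, plus strand), was higher with DTPA, at 3014, 2994 and 2998 TPM against 2170, 2174 and 2150 TPM. Its log2 fold change was 0.47 (adjusted p = 2.3e-10).

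Along the chain, 5 of the 9 enzymes were lower with DTPA, 2 were higher and 2 were not called, or 5 lower and 3 higher under median-of-ratios scaling. Uros, an enzyme of the cytosolic part of the chain, was higher at 120, 126 and 122 TPM against 71.6, 73.7 and 71.1 TPM (log2 fold change 0.76). Cpox, a mitochondrial oxidase late in the chain, was lower by 0.90 in log2, and Urod and Ppox by 0.36 and 0.33. Fech, which inserts iron, differed by 0.02 with a 95% interval from -0.02 to 0.06, and the housekeeping first enzyme Alas1 by 0.05 with an interval from -0.17 to 0.26. These intervals bound the difference on the scale of the deposited TPM.

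Partners of heme synthesis and genes of heme transport differed in both directions as well, 6 of 17 higher, 9 lower and 2 not called (8 and 9 under median-of-ratios scaling). Slc48a1, which moves heme out of endosomes, stood at 252, 254 and 252 TPM with DTPA and at 90.6, 90.1 and 88.8 TPM with SA, with control libraries between 130 and 137 TPM. Flvcr1, the plasma membrane heme exporter, had the same order: 80.7, 77.8 and 80.5 TPM with DTPA, 42.4 to 46.5 TPM in control and 32.3, 31.8 and 36.4 TPM with SA. The mitochondrial carriers Slc25a39, known for glutathione import, and Slc25a37, the iron importer mitoferrin, were lower with DTPA by 1.26 and 0.96 in log2. Against control, SA differed by 0.01 for Slc25a39 and by -0.10 for Slc25a37.

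Genes under BACH1, the repressor that heme removes from DNA, and under the oxidant sensor NRF2 form a list of 26, of which 24 were measured. In the direct comparison 10 were higher with DTPA, 10 lower and 4 not called, a median of 0.02, and 14 against 7 under median-of-ratios scaling. Hmox1, heme oxygenase 1, stood close in both treatments: 68.9, 69.9 and 61.5 TPM with DTPA and 55.2, 60.7 and 55.2 TPM with SA, against 147 to 149 TPM in control. Its log2 fold change was 0.22 with a 95% interval from 0.10 to 0.34. Against control, 19 of the 24 were called lower with DTPA and 20 with SA.

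Single members of that list stood apart. Srxn1, sulfiredoxin, had 85.3, 86.3 and 88.3 TPM with DTPA and 32.6, 30.3 and 29.1 TPM with SA, while control had 67.4 to 73.9 TPM. Nqo1, a quinone reductase, was in contrast lower with DTPA, at 4.97, 7.40 and 6.09 TPM against 22.8, 21.6 and 23.0 TPM. Txnrd1, thioredoxin reductase, was lower with DTPA by 0.86 in log2, with both treated groups under the controls.

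Iron genes differed little. Of 16 measured, 9 were higher with DTPA, 4 lower and 3 not called, with no member 2-fold apart, and 11 and 2 were called under median-of-ratios scaling. Tfrc, the transferrin receptor that brings in iron, stood at 755, 769 and 797 TPM with DTPA and 624, 606 and 648 TPM with SA. Both groups lay under the controls, at 861 to 909 TPM. Aco1, the RNA-binding sensor IRP1, was higher with DTPA by 0.57 in log2, and the iron exporter gene Slc40a1 (ferroportin) by 0.58.

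**Figure D3:**
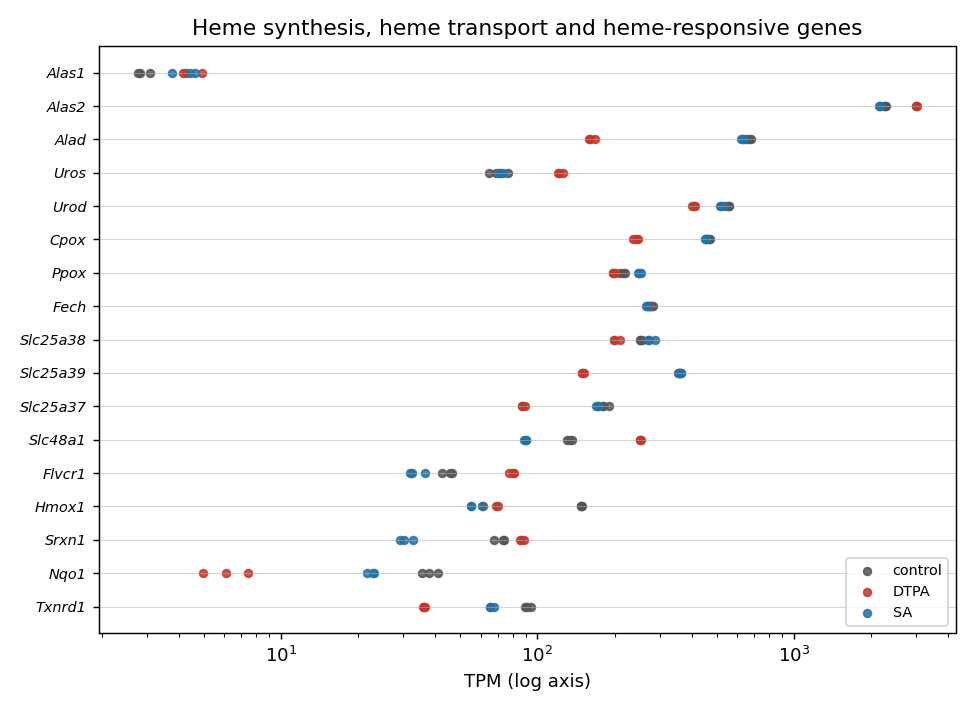
TPM on a log axis of 8 heme synthesis enzymes, 5 heme transporters or mitochondrial carriers and 4 BACH1 or NRF2 targets, with 1 point per library for control, DTPA and SA. Alad, Cpox, Slc25a39 and Slc25a37 have SA points near control and DTPA points to the left, and Hmox1 has both treated groups to the left of control.

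Globin transcripts gave the widest ratios. Hbb-bh1 and Hbb-y are the β-like globins of the embryonic yolk sac, silent in adult red cells. Hbb-bh1 (chr7:103841637-103843164, minus strand) stood at 8294, 7915 and 8645 TPM with DTPA and at 11.9, 12.1 and 9.48 TPM with SA. The controls, 79.1 to 80.3 TPM, lay between, with every DTPA library above them and every SA library below. DTPA exceeded SA 743-fold. In log2 the gap was 9.42 with a standard error of 0.095 (limma, adjusted p = 1.9e-14), and it split into 6.68 for DTPA and -2.74 for SA against control.

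Hbb-y (chr7:103851749-103853216, minus strand) had 677, 601 and 673 TPM with DTPA, 13.3 to 16.0 TPM in control and 0.460, 0.443 and 0.725 TPM with SA. The SA values rest on 2, 2 and 3 reads, against 9550 reads in the DTPA libraries together, a depth-adjusted ratio of 1285 with an exact 95% counting interval from 623 to 3196. The embryonic α-like gene Hba-x had 75.5, 67.3 and 60.8 TPM with DTPA and 3.11, 3.14 and 1.47 TPM with SA, and its controls again lay between, at 7.32 to 8.67 TPM. Hbb-bh0, annotated as an unprocessed pseudogene of the β-like cluster, had 13.1, 20.1 and 21.2 TPM with DTPA and 1 read in the SA libraries together, a ratio of 51.8 with an interval from 8.92 to 2083. Hbb-bh2, named to complete the locus after its values were seen, had 74 reads with DTPA and is listed at 0 in all 3 SA libraries. Against a floor of 3 reads over the group it was at least 23.2-fold higher with DTPA.

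Adult globins were closer. Hbb-bs, the main adult β globin, had 26156, 27318 and 25167 TPM with DTPA and 7506, 7242 and 7609 TPM with SA, with no overlap and control between at 18083 to 20655 TPM (log2 fold change 1.81, adjusted p = 1.4e-10). Hba-a1, adult α globin, was higher by 0.27 only, at 10543, 9719 and 10193 TPM against 8690, 8425 and 8083 TPM. Hba-a2, named after its values were seen, was lower by 0.54 (limma, adjusted p = 0.022), a call that was lost under both rescalings, with no filter, and without DTPA replicate 1 or SA replicate 1. Hbb-bt scattered from 2782 to 11222 TPM with DTPA and from 725 to 3230 TPM with SA, overlapping groups with adjusted p = 0.011. The 2 adult β genes, and the 2 adult α genes, share almost all of their sequence, so the split of reads inside each pair is uncertain. Of the 11 measured globins, the pseudogene included, 8 were higher with DTPA, 1 (Hba-a2) lower and 2 not called, and under median-of-ratios scaling 8 were higher and none lower. With a filter of 5 TPM, 9 globins were measured, 7 of them higher and 1 lower. The median of 1.85 is the value of the scattered Hbb-bt itself, and it moved to 2.46 without SA replicate 2 and to 3.25 with voom on the recovered reads, which measured 10 of them.

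Regulators known to control the embryonic to adult globin switch showed no shared direction: of 23 measured, 8 were higher, 11 lower and 4 not called, while the rescaled values gave 11 higher and 9 lower. Bcl11a, the repressor of embryonic and fetal β-like globins, was lower with DTPA at 3.21, 3.12 and 2.97 TPM against 8.09, 8.17 and 8.78 TPM. Its controls lay between, at 6.01 to 6.36 TPM. Nfix, a factor linked to the repression of fetal globin, was at 0.134, 0.0840 and 0.118 TPM against 1.11, 1.35 and 1.48 TPM. Prmt5 was lower by 0.82 in log2. The 8 higher include Myb, a factor of dividing progenitors, at 2.20, 1.78 and 1.74 TPM against 0.668, 0.549 and 0.548 TPM. Myb passed the filter only through its DTPA libraries, so its direction carries no weight. With a filter of 5 TPM 7 of 20 were higher and 10 lower.

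Red cell maturation genes were mostly lower with DTPA. Of 30 measured, 22 were lower, 6 higher and 2 not called (19 and 8 under median-of-ratios scaling), with a median of -0.62 against -0.17 over all genes. Slc4a1 encodes band 3, the anion exchanger that anchors the membrane skeleton. It stood at 49.3, 43.4 and 43.8 TPM with DTPA and at 522, 520 and 520 TPM with SA, both below the controls (681 to 747 TPM), and SA exceeded DTPA 11.4-fold (limma, adjusted p = 1.4e-13 for a log2 difference of -3.49). The Rh antigen gene Rhd had 0.969, 0.310 and 1.56 TPM against 28.5, 25.1 and 24.2 TPM, while its SA and control libraries overlapped. The membrane skeleton genes Dmtn and Tmod1 were lower with DTPA by 2.35 and 2.04 in log2.

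Gata1 reads, which cannot tell the transgene from the disrupted locus, stood at 1048, 1087 and 1039 TPM with DTPA and at 2099, 2086 and 2193 TPM with SA (log2 fold change -1.01). Gfi1b, a repressor that partners GATA1, was higher with DTPA at 722, 774 and 750 TPM against 255, 261 and 264 TPM. GATA factors and their partners as a list were split, with 11 higher, 13 lower and 2 not called of 26, or 13 and 10 under median-of-ratios scaling.

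Progenitor genes that GATA1 normally represses were mostly higher with DTPA: 13 of 16 were called higher, 2 lower and 1 not called, with a median of 0.80, and 14 and 2 under median-of-ratios scaling. Kit, the receptor for stem cell factor, stood at 27.0, 25.8 and 27.1 TPM with DTPA, at 9.66, 9.29 and 9.06 TPM with SA and at 5.60 to 5.95 TPM in control, so the 3 groups did not overlap. Spi1, the myeloid and lymphoid factor PU.1, was higher with DTPA by 1.46 in log2, the adhesion receptor gene Cd44 by 1.24 and the megakaryocyte factor gene Fli1 by 1.16. Against control, SA differed in these genes by 0.14, 0.12 and -0.16.

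Markers of other blood cells are given beside these groups. The 14 megakaryocyte markers summed to between 37.0 and 46.1 TPM with DTPA and between 8.53 and 10.0 TPM with SA. Of these, 5 were at 0 and 10 under 1 TPM in every library, and 3 of the 4 measured were called higher with DTPA. The marker not called, Itga2b, stood at 1.18, 1.02 and 1.37 TPM against 1.31, 1.39 and 1.35 TPM. Gp9 had 2.87, 4.91 and 1.55 TPM against 1.32, 0.795 and 0.694 TPM, and its DTPA libraries overlapped control. Itgb3, the platelet integrin β3, stood at 17.1, 17.7 and 16.0 TPM with DTPA and 1.78, 1.40 and 1.53 TPM with SA, and the platelet receptor gene Gp1ba at 16.0, 22.0 and 17.4 TPM against 5.47, 4.69 and 6.02 TPM. Mast cell and myeloid markers summed to 5.09 to 5.24 TPM with DTPA and 2.98 to 4.16 TPM with SA, with 11 of 22 at 0 in every library. Lymphoid markers summed to 1.37 to 2.04 TPM against 0.542 to 0.922 TPM, with 10 of 15 at 0. The part of such cells in the results above was not tested.

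In the integrated stress response the ATF4 targets were mostly above control with SA and mostly below it with DTPA. ATF4 drives genes that import and make amino acids, and of its 23 measured targets 21 were lower with DTPA than with SA, none higher and 2 not called (18 lower and 1 higher under median-of-ratios scaling), with a median of -1.07. Against control, 18 were called lower and 3 higher with DTPA, and 18 higher and none lower with SA. The targets come from a list of 39. The others did not reach the level needed for testing, Chac1 among them, which is listed at 0 in all 12 libraries.

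Atf4 itself stood at 103, 101 and 98.7 TPM with DTPA, in the range of the controls (96.1 to 105 TPM), and at 145, 151 and 152 TPM with SA. Ddit3, which encodes the stress factor CHOP, stood at 345, 346 and 345 TPM with DTPA, 327 to 341 TPM in control and 547, 553 and 545 TPM with SA. Its DTPA libraries lay just above control, by 0.06 in log2 (limma, adjusted p = 0.029), a step smaller than the scaling shift. Trib3, a pseudokinase that feeds back on ATF4, stood at 10.0, 8.37 and 8.73 TPM against 26.9, 25.8 and 25.5 TPM, with DTPA and control libraries overlapping. For these 3 genes the gap between the treatments was thus mostly a gap between SA and control.

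Other targets were low with DTPA and high with SA. Atf5, a sister factor of ATF4, stood at 145, 146 and 138 TPM with DTPA, 247 to 254 TPM in control and 504, 525 and 525 TPM with SA (log2 fold change -1.85, adjusted p = 3.5e-13). Slc7a1, an importer of arginine and lysine, had 5.99, 6.77 and 5.79 TPM, 14.7 to 16.4 TPM and 21.4, 21.6 and 22.5 TPM in the same order. Shmt2, the mitochondrial enzyme that splits serine, and Asns, asparagine synthetase, were likewise ordered, with Asns at 204, 206 and 203 TPM with DTPA and 492, 490 and 502 TPM with SA. The glutamine importer gene Slc1a5 was also lower with DTPA, by 1.80 in log2, but its SA and control libraries overlapped. It had 1059, 1138 and 946 reads with SA and 964, 1119 and 922 in control.

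A list of eIF2 kinases, eIF2B subunits and other regulators of the stress response, ATF4 and some of its targets included, was mostly lower with DTPA as well: of 18 measured 16 were lower, 1 higher and 1 not called, a median of -0.36, or 11 and 2 under median-of-ratios scaling. Against control, 13 were called lower and 2 higher with DTPA, and 6 higher and 1 lower with SA, where the median was 0.03. Atf5, Cebpg, Ddit3, Cebpb and Ppp1r15a stand both here and among the ATF4 targets. Eif2ak1, which encodes the heme-sensing kinase HRI, stood at 428, 429 and 422 TPM with DTPA and at 454, 467 and 454 TPM with SA. Its log2 fold change of -0.10 turned to 0.09 under median-of-ratios and 0.08 under trimmed-mean scaling, so no direction is read from it. Cebpg, a partner of ATF4, was lower with DTPA by 1.07.

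Aminoacyl-tRNA synthetases charge tRNAs with amino acids, and several are known ATF4 targets. Of the 20 cytosolic ones 18 were lower with DTPA and 2 higher, the same under median-of-ratios scaling, with a median of -0.77. Vars stood at 47.0, 43.7 and 44.1 TPM with DTPA and at 145, 149 and 145 TPM with SA, around 113 to 116 TPM in control. Aars stood at 115, 118 and 112 TPM against 342, 345 and 345 TPM, with control at 266 to 277 TPM.

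ATF4 with its C/EBP partners is known to bind a composite element, searched here as TGATGNAAN on both strands in the same promoter window. Asns and Trib3 are shown because both held a match, in capitals, read along the gene's strand (minus in both) at chr6:7693160-7693459 and chr2:152344011-152344310 on GRCm38.p6.
Asns: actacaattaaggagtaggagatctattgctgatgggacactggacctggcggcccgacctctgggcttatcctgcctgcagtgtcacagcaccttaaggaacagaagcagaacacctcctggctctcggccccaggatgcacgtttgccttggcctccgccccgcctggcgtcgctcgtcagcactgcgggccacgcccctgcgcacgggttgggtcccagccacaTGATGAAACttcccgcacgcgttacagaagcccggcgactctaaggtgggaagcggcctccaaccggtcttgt
Trib3: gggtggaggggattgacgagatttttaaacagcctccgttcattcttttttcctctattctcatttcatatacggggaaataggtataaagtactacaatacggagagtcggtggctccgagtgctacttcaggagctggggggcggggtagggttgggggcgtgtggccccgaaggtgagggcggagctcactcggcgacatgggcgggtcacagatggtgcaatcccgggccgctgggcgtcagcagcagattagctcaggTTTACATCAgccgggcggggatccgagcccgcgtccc
A match was present in 5 of the 21 ATF4 targets with a window and in 5 of the 13 synthetases, and in 2.49% of all 7841 tested genes with a window. The windows of Atf5, Ddit3, Shmt2 and Slc7a1 held none, which says only that these letters are not in them.

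**Figure D4:**
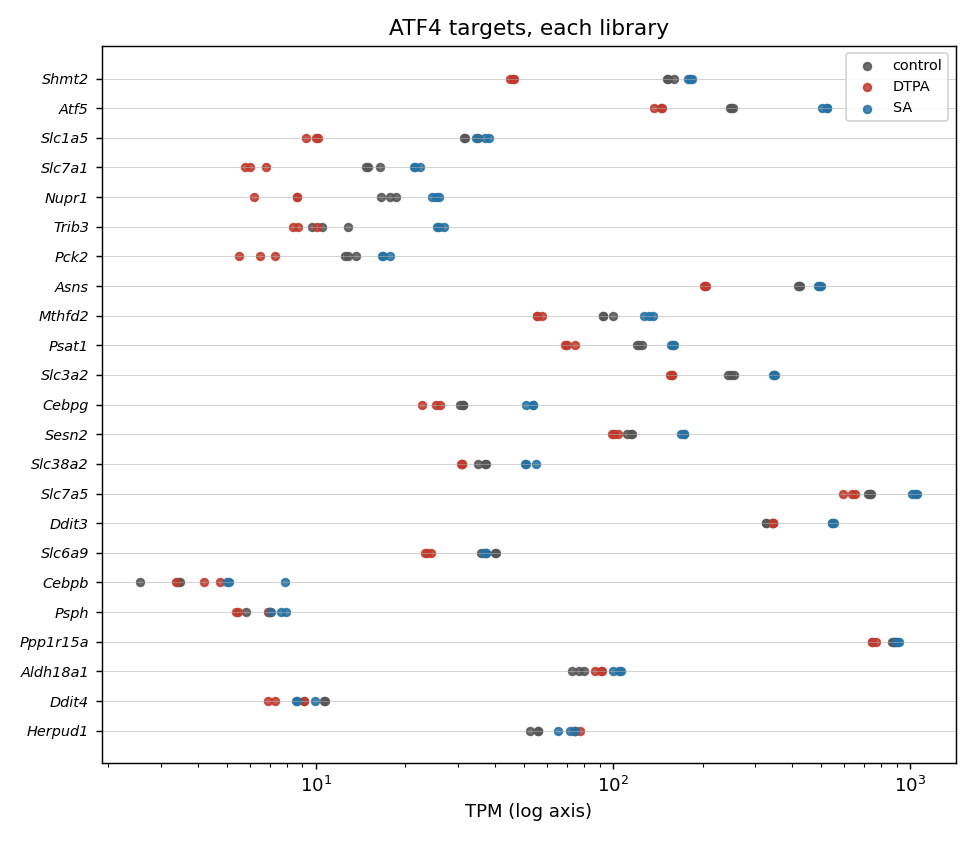
TPM on a log axis of the 23 measured ATF4 targets in each control, DTPA and SA library, ordered by the DTPA minus SA difference. For Shmt2, Atf5 and Asns the red DTPA points lie left of the grey control points and the blue SA points right of them, whereas for Ddit3 the DTPA points lie beside control.

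Genes of dividing cells were far lower with DTPA than with SA. SA lay close to control in most mitosis genes, while many replication genes were lower than control with SA too. All 32 mitosis and cytokinesis genes were called lower with DTPA, 31 of them at least 2-fold, with a median of -3.16. Against control the list's median was -3.18 with DTPA and -0.07 with SA, where 7 genes were called lower and 0 higher. Mki67, the proliferation marker Ki-67, stood at 16.0, 17.0 and 15.9 TPM with DTPA, at 195, 189 and 199 TPM with SA and at 209 to 222 TPM in control. Birc5, survivin of the chromosomal passenger complex, stood at 4.50, 3.23 and 4.39 TPM with DTPA and at 84.6, 84.9 and 90.9 TPM with SA (log2 fold change -4.13, adjusted p = 3.3e-12). Plk1, a mitotic kinase, had 4.47, 5.17 and 5.26 TPM against 76.2, 67.5 and 74.1 TPM, and Ccnb2, a cyclin of mitotic entry, 9.27, 8.80 and 9.67 TPM against 119, 122 and 136 TPM. In all 4 genes the DTPA and SA libraries did not overlap, and the spindle genes Nusap1, Hmmr and Spc24 and the checkpoint gene Bub1b had log2 fold changes between -3.92 and -3.58.

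Genes switched on late in the cell cycle often carry the cell cycle homology region, TTTGAA, near their start, where the DREAM and MMB complexes act. The Plk1 and Ccnb2 promoters are shown with its matches in capitals, at chr7:122159185-122159484 on the plus strand and chr9:70421505-70421804 on the minus strand.
Plk1: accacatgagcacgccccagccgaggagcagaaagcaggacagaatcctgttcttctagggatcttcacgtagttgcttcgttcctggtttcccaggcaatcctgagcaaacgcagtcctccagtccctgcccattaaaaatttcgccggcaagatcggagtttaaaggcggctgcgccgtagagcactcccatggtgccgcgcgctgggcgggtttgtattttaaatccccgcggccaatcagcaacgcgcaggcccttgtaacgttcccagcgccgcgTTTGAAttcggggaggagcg
Ccnb2: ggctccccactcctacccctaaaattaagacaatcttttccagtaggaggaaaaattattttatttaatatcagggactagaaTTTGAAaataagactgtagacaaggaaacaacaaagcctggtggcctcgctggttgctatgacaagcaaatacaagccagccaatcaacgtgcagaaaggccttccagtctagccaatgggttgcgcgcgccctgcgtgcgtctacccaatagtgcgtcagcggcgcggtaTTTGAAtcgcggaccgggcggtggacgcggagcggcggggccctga
The letters were found in 20 of the 26 mitosis genes with a window (76.9%), in 4 of the 29 S phase genes with one and in 14.1% of all tested genes with one, searching both strands. No 2 of the motifs searched here overlapped in the windows examined. The Birc5 window held no match, although its transcript had the largest difference of the list.

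The S phase and replication list, 35 genes, was called lower with DTPA throughout, 25 of them at least 2-fold, with a median of -1.38 (34 lower and none higher under median-of-ratios scaling). Against control all 35 were called lower with DTPA. With SA 21 were called lower than control and 1 higher, with a median of -0.21. Rrm2, the regulated subunit of ribonucleotide reductase, stood at 7.00, 6.56 and 5.97 TPM with DTPA and 79.2, 73.9 and 77.5 TPM with SA. Here SA lay below the controls, at 98.3 to 106 TPM. Mcm5, part of the replicative helicase, had 8.94, 8.48 and 8.01 TPM against 79.7, 77.8 and 74.2 TPM, also below control (115 to 122 TPM).

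Regulators of G1 were split, 7 higher with DTPA, 12 lower and 1 not called of 20. The repressive factor E2f8 (log2 fold change -3.39), the activator E2f2 (-2.23) and the pocket protein gene Rbl1 (-1.88) were lower, and E2f3 was higher at 20.3, 21.4 and 19.8 TPM against 7.99, 8.33 and 9.66 TPM. Genes of purine and pyrimidine synthesis were lower in 18 of 20, with 1 higher and a median of -0.64. Paics, a purine enzyme, stood at 89.6, 92.7 and 90.6 TPM with DTPA and 237, 244 and 249 TPM with SA, which overlapped control.

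**Figure D5:**
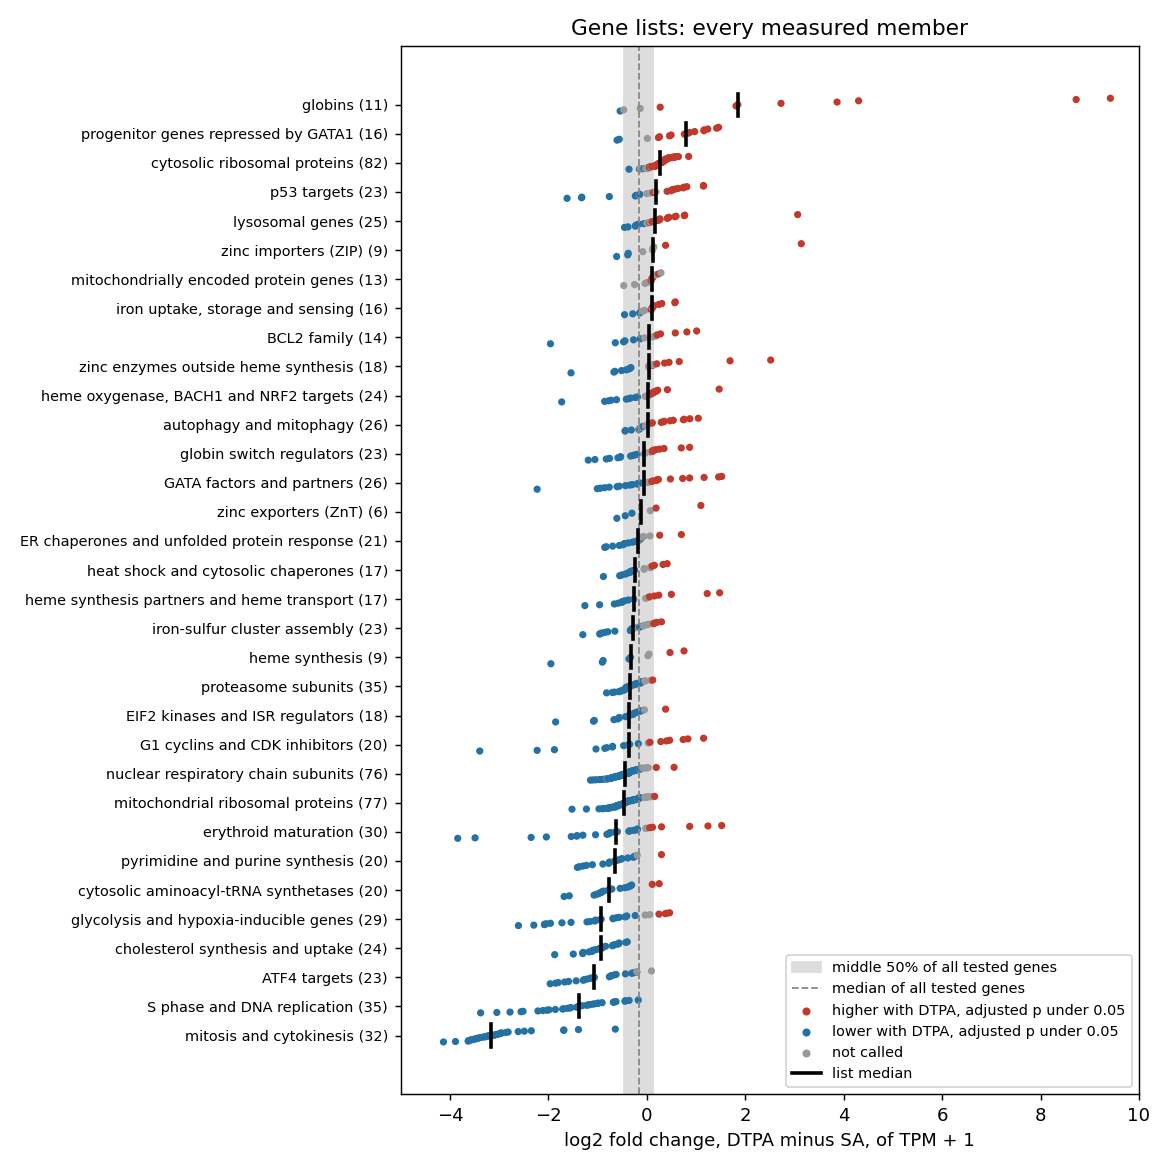
Log2 fold change of DTPA minus SA for every measured member of 33 gene lists, with counts in brackets, list medians as black bars, and red, blue and grey points for members called higher, called lower and not called. Mitosis and S phase genes have medians left of the grey band that holds the middle 50% of all genes, and globins and progenitor genes have medians to its right.

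Metabolic lists leaned the same way. All 24 measured genes of cholesterol synthesis and uptake were lower with DTPA than with SA, under median-of-ratios scaling as well, with a median of -0.93, and against control 24 were called lower with DTPA and 22 with SA. Fdps, which makes farnesyl diphosphate, stood at 5.04, 5.55 and 6.24 TPM with DTPA, 21.4, 24.3 and 23.7 TPM with SA and 26.9 to 27.9 TPM in control. Sqle, squalene epoxidase, stood at 78.9, 79.6 and 79.5 TPM against 195, 196 and 201 TPM, with control at 228 to 233 TPM. For both genes SA lay below control and DTPA below SA.

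Of 29 glycolysis and hypoxia-inducible genes 23 were lower with DTPA, 4 higher and 2 not called, with a median of -0.93. Ldha, lactate dehydrogenase A, had 153, 150 and 157 TPM with DTPA and 699, 844 and 733 TPM with SA, and Tpi1, triosephosphate isomerase, 361, 356 and 360 TPM against 1471, 1610 and 1468 TPM. Pdk1, the kinase that shuts pyruvate dehydrogenase, was lower by 2.61 in log2. Vegfa had 4, 10 and 8 reads in the DTPA libraries and 105, 158 and 107 in those of SA.

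Targets of p53 differed both ways. Of 23 measured 12 were higher with DTPA, 7 lower and 4 not called, or 13 and 4 under median-of-ratios scaling. Bbc3, the death-promoting PUMA gene, stood at 195, 192 and 195 TPM with DTPA and at 108, 112 and 109 TPM with SA, and the death receptor gene Eda2r at 21.0, 22.2 and 22.5 TPM against 10.6, 8.54 and 8.88 TPM. The lower members Ckap2 and Gtse1 are genes of the mitotic spindle, and Ddb2 is a DNA repair gene. In the BCL2 family 5 were higher, 6 lower and 3 not called of 14 (8 and 5 under median-of-ratios scaling), with Bnip3, a mitophagy receptor induced by hypoxia, lowest at 41.2, 43.8 and 45.7 TPM against 159, 196 and 162 TPM. The 5 higher include Bok, which passed the filter only through its DTPA libraries. With a filter of 5 TPM 4 of 13 were higher and 6 lower.

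Autophagy and lysosome genes leaned towards higher levels with DTPA, autophagy only relative to the scaling. Of 26 autophagy genes 10 were higher, 7 lower and 9 not called, but 18 and 2 under median-of-ratios scaling. Ulk1, the initiating kinase, had 74.1, 72.3 and 70.2 TPM against 38.9, 39.2 and 38.6 TPM, Atg2a, a lipid transfer protein of the growing membrane, was higher by 1.05 in log2, and Tfeb, a factor for both programs, by 0.76. Of 25 lysosomal genes 15 were higher, 7 lower and 3 not called (18 and 2). Laptm5, a lysosomal membrane protein of blood cells, stood far apart at 489, 507 and 474 TPM against 57.4, 58.6 and 56.9 TPM.

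Genes of protein synthesis split by compartment. Cytosolic ribosomal protein genes were higher with DTPA in 67 of 82, lower in 3 and not called in 12, with a median of 0.28, and 76 and 1 under median-of-ratios scaling. Against control 75 were called higher with DTPA and 73 with SA. In contrast 69 of 77 mitochondrial ribosomal protein genes were lower with DTPA and 1 higher, with a median of -0.46 (53 and 5 under median-of-ratios scaling), led by Mrps18c at 25.7, 24.0 and 25.8 TPM against 77.4, 75.3 and 69.5 TPM.

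Nuclear genes of the respiratory chain followed the mitochondrial ribosome, with 67 of 76 lower, 2 higher and 7 not called, a median of -0.43, and 54 and 7 under median-of-ratios scaling. Ndufa5, a complex I subunit, had 53.4, 48.1 and 56.8 TPM with DTPA and 120, 113 and 119 TPM with SA. The 13 protein genes encoded in the mitochondrion itself did not show this: 5 were called higher, none lower and 8 were not called, with mt-Co1 at 21753, 22029 and 21919 TPM against 18553, 18522 and 18546 TPM. Iron-sulfur cluster genes were lower in 14 of 23 and higher in 4 (9 and 7 under median-of-ratios scaling). Bola3, a late factor of mitochondrial cluster delivery, stood at 19.9, 23.1 and 23.1 TPM against 56.2, 57.7 and 52.9 TPM.

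Among protein quality control genes, proteasome subunits were lower with DTPA in 31 of 35 and higher in 1, with a median of -0.34 (22 and 6 under median-of-ratios scaling). Chaperones of the endoplasmic reticulum were lower in 14 of 21 and higher in 2, with a median of -0.18 that turned to 0.01 under median-of-ratios scaling, where 9 were lower and 5 higher. Xbp1, a factor of the unfolded protein response, was lower at 75.2, 75.6 and 76.8 TPM against 133, 138 and 135 TPM, and the ER co-chaperone gene Dnajb9 was higher at 127, 126 and 136 TPM against 75.7, 80.9 and 80.9 TPM. Cytosolic chaperones were lower in 9 of 17 and higher in 4, or 7 and 8 under median-of-ratios scaling, with the HSP90 adaptor gene Stip1 lower by 0.88 in log2.

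Outside these lists the largest differences belonged to genes of varied function. Alpk3, a kinase-like gene known from heart muscle, had 82.6, 86.8 and 84.1 TPM with DTPA and 3.41, 3.24 and 3.46 TPM with SA, while SA overlapped control. Vav1, a signalling protein of blood cells, stood at 145, 150 and 145 TPM against 15.4, 14.5 and 15.0 TPM, and the carboxypeptidase gene Cpz was 11.4-fold higher with DTPA. In the other direction Slc52a3, a riboflavin transporter, had 0.914, 1.21 and 1.53 TPM with DTPA and 44.7, 52.2 and 47.0 TPM with SA (log2 fold change -4.47), and again SA overlapped control.

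Apart from globins, few of the most separated genes had control strictly between the treatments. Scamp5, a vesicle membrane protein, was the clearest on the DTPA side, at 76.6, 78.3 and 76.8 TPM with DTPA, 11.4 to 12.6 TPM in control and 4.48, 5.74 and 6.64 TPM with SA. Mllt3, a chromatin reader of blood stem cells, was 7.96-fold higher with DTPA, its SA libraries lying below control by 0.21 in log2. On the SA side Hsd17b14, a short-chain dehydrogenase, stood at 1.65, 3.14 and 2.01 TPM with DTPA, 11.5 to 14.4 TPM in control and 26.8, 26.6 and 25.0 TPM with SA. Gadd45b, a growth arrest gene, had 5, 6 and 2 reads with DTPA and 113, 141 and 120 with SA, with 72 to 86 in control.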

How the data were processed

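RNA came from a column kit and was made into stranded mRNA libraries, per the labels' protocols. The submitters' processing notes name Trimmomatic 0.33, FastQC, HISAT2 2.1.0, featureCounts, edgeR and the build mm10; their settings were not given in the sources used here. For each library the authors deposited TPM values for 55487 rows named by gene symbol. In 234 rows the symbol was 1 of 114 that repeat; these rows stayed separate, and the most abundant was given the plain name. GENCODE M21 supplied mm10 positions and exon lengths for 53243 rows (96.0%). Multiplied by exon length, 98.8% to 99.0% of values up to 200 reads were whole multiples of a step (within 0.1 read), from which reads were recovered. Replicates differed by more than sampling noise.

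Log2(TPM + 1) of the 11920 genes with 1 TPM or more in 3 or more of the 12 libraries entered limma 3.58.1 (R 4.3.3) with 1 mean per group and a variance trend. P-values were adjusted by Benjamini-Hochberg over those genes (threshold 0.05). Differences of low genes are understated by the pseudocount of 1. Fold values given as multiples are ratios of mean TPM. Intervals on reads cover counting error only. An exact permutation test of 3 against 3 cannot go below 0.1 and was not used. The fit was tested on simulated data. Python 3.11.15, numpy 2.4.6, pandas 2.3.3, scipy 1.17.1 and matplotlib 3.10.9 were used.

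The comparison, gene lists and the genes always named were chosen with earlier results of these data known. Lists overlap in places and are described by counts and medians. Named genes are the 12 largest differences each way without overlap (mean at least 5 TPM), up to 4 called genes of each list (mean at least 1 TPM), the 5 largest each way with control in between, genes at least 2-fold from control in both treatments whose difference had an interval inside 0.5, and 25 genes always given. Predicted models were not named, some names were dropped for length or are not reported here, and genes completing a list were added after their values were seen. Promoters are RefSeq's (GRCm38.p6). Alternatives: a pseudocount of 0.1 or 5; filters of none or 5 TPM; rescaling by the median of ratios or by a trimmed mean (trims of 30% and 5%); globin genes removed; robust variances; the 6 compared libraries alone; a replicate block; each library left out. Voom in limma on the recovered reads and rescaling to protein-coding genes were added after the data were seen.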

Additional observations from a re-analysis of the deposited data

How the results depend on the processing

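The total of called genes, 7994 as reported, lay between 7097 and 8168 under the alternatives run. The ends of that range come from unlike numbers tested, 9146 genes with protein-coding genes only and 20946 with no filter. The split of the calls moved with the scaling. Genes called higher with DTPA rose from 2395 to 3794 under median-of-ratios scaling and to 3734 under trimmed-mean scaling, which gave 3884 and 3952 lower; 118 and 96 genes were then called in the opposite direction. Voom on the recovered reads called 3143 higher and 4853 lower. Genes called at 2-fold or more fell from 1175 to 608 with a pseudocount of 5, which shrinks differences of low genes. Leaving out 1 library gave 7609 to 7642 called, 2198 to 2308 higher and 5309 to 5414 lower. With the replicate block 7896 genes were called, 2352 higher and 5544 lower. Deviations of same-numbered DTPA and SA libraries correlated at 0.0046, -0.043 and -0.035 over all tested genes. A shift shared by few genes would not show in these values, so they do not settle whether replicate numbers pair the samples. Of the 170 named genes 167 kept direction and call wherever tested. Eif2ak1 reversed to 0.0868 and 0.0794 under median-of-ratios and trimmed-mean scaling, and was not called by voom (-0.0125, adjusted p = 0.556). Slc30a6 lost its call under both scalings (-0.1333 and -0.1399), and mt-Nd2 lost its call with no filter (adjusted p = 0.143). The causes were not tested. TPM fixes the total of each library, so the absolute amount of RNA per cell is not measured, and levels near 1 TPM rest on few reads.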

Other observations

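Zinc finger proteins hold zinc as part of their fold. Of 278 measured genes named Zfp, 59 were called higher with DTPA than with SA, 125 lower and 94 not called (66.2% called, against 67.1% of all genes), with a median log2 fold change of -0.14 against -0.17. Zfp27 was the highest of the named ones, at 24.4, 26.2 and 25.2 TPM with DTPA and 8.52, 7.73 and 8.58 TPM with SA. Zfp213 had 3.35, 3.36 and 3.15 TPM against 10.8, 11.8 and 8.14 TPM.

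Clustered histone genes are mostly without a poly(A) tail, and only 2 of 9 listed were measured in these libraries. Of these, Hist1h2al is annotated as a processed pseudogene, so Hist1h2bp was the 1 protein-coding member. Hist1h2al had 23.6, 23.3 and 24.2 TPM with DTPA and 6.01, 5.37 and 2.71 TPM with SA, and Hist1h2bp had 0.597, 0.875 and 0.176 TPM against 2.27, 2.18 and 3.03 TPM.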
